A study of Mus musculus with 7 samples.

Results

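Neuropeptide precursor genes other than the tachykinins, together with 4 granin genes, were followed through RNA-seq of the mouse dorsal midbrain. The 34 genes were listed by name as neuropeptide and granin genes, among 52636 genes in the count tables. Of these, 33 could be matched by Ensembl identifier and 26 had enough counts to be tested. Kiss1, the kisspeptin gene, was not analysed here. RNA from newborn dorsal midbrain, the region that includes the superior colliculus, was compared between mice that lack Brn3b (Pou4f2), a POU-homeodomain transcription factor, in the midbrain and their controls. The 3 control mice (A2 and A6 at P4, A4 at P3) were Brn3b flox/+ with En1-Cre, and the 4 cKO mice (B1 and B8 at P4, B7 and B9 at P2) were Brn3b flox/- with En1-Cre. All 7 mice therefore carried Cre and a conditional allele that, once recombined, places alkaline phosphatase under the Brn3b promoter, so the controls had also lost a copy of Brn3b wherever Cre was active. En1-Cre acts in midbrain and anterior hindbrain, and the null allele of the cKO mice was present in every cell of the body. P2 was sampled only among the cKO mice and P3 only among the controls.

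Counts on genes ranged from 23588248 in A2 to 87572085 in B9, and levels are given as CPM, counts scaled to the library size with TMM factors. The P2 libraries were the deepest, with 67792192 counts in B7, and A4 came next with 40411968. Pou4f2 (ENSMUSG00000031688.4, chromosome 8, GRCm38) was at 46.5, 47.4 and 45.8 CPM in controls A2, A4 and A6 and 9.65, 9.67, 10.6 and 11.6 CPM in cKO mice B1, B7, B8 and B9. Every cKO mouse was thus far below every control, with a log2 fold change of -2.16 ± 0.13 (SE; edgeR adjusted p = 0.000566). Pou4f2 was the only gene among 21817 tested that passed an adjusted p of 0.05 by edgeR with all 7 mice. A cKO library, B8, stood apart from the rest of its group in the listed genes. Of the 26 listed genes tested, B1, B7 and B9 lay below the lowest control in 18, 17 and 18 genes, whereas B8 did so in 1, lay within the control range in 14 and lay above it in 11. Over all genes tested, B8 lay within the control range in 61.8% and the other cKO mice in 20.1% to 23.1%. B1, B7 and B9 lay below the controls in 38.2%, 39.8% and 39.2% of all genes, and B8 lay below in 21.6% and above in 16.6%. The listed genes that were tested are therefore given both with B8 and without it. B8 was singled out by these same values, so calls made without it depend on that choice. Among the cKO mice then left, B7 and B9 were P2, an age without controls. B8 still carried the low Pou4f2 of its label.

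The dissected region was checked against marker genes. All 8 dorsal midbrain markers were expressed, with sums of 486, 547 and 535 CPM in A2, A4 and A6 and 514, 627, 484 and 701 CPM in B1, B7, B8 and B9, and Meis2 was the most abundant of them. Of 8 hypothalamic markers, Rax, Six6, Nr5a1, Fezf1 and Nkx2-1 were below 0.2 CPM in every library and the list, with Otp the most abundant, summed to 1.66, 1.37 and 0.621 CPM in A2, A4 and A6 and 2.31, 3.93, 3.84 and 2.83 CPM in B1, B7, B8 and B9, all cKO mice being above the controls. The 8 pituitary markers summed to 3.29 to 6.35 CPM, with Pitx1 the most abundant, Prl at 0 counts and Cga and Tbx19 below 0.2 CPM throughout. Markers of these regions, the main sites of several listed genes, thus had few counts. Among 8 hindbrain markers Hoxb2 and Hoxa3 had 0 counts in all 7 libraries, and Hoxa2, Hoxb3 and Atoh1 were below 0.2 CPM in every library, B8 included. The sum of the list was 3.57, 1.17 and 1.79 CPM in the controls and 2.31, 4.98, 18.5 and 1.41 CPM in B1, B7, B8 and B9. The high sum of B8 came from Tph2, the tryptophan hydroxylase of serotonergic neurons and the most abundant gene of the list, which was at 17.2 CPM in B8 and at 0.824 to 4.45 CPM in the other mice. En1, which marks the midbrain-hindbrain boundary, was also highest in B8, at 12.3 CPM against 2.78 to 7.78 CPM elsewhere. It belongs to the dorsal midbrain list, whose sum was lowest in B8, at 484 CPM, close to A2 at 486 CPM. Slc17a7, a glutamate transporter abundant in cortex, was at 8.27 CPM in A4 and 0.588 to 2.15 CPM elsewhere. The 8 telencephalic markers were also highest in A4, but by less, with a sum of 76.6 CPM against 46.7 to 62.1 CPM elsewhere.

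Among cell classes, the 8 neuronal markers summed to 5077 to 6015 CPM in the controls and 4293, 4375, 5312 and 4029 CPM in B1, B7, B8 and B9, with Stmn2 the most abundant, so that B8 lay among the controls and the other cKO mice below them. The separate list of GABAergic neuron markers went the other way, with B1, B7 and B9 above every control and B8 within the control range. Astrocyte markers (Slc1a3 highest) summed to 971 to 1021 CPM in the controls and 1248, 1178, 1039 and 1138 CPM in B1, B7, B8 and B9, all above the controls and B8 the nearest to them. Oligodendrocyte lineage markers (Olig1 highest) summed to 381 to 437 CPM in the controls, 450.2 CPM in B8 and 323 to 449 CPM in the other cKO mice. Microglial markers (Csf1r highest) lay at 119 to 177 CPM in the controls, 128 CPM in B8 and 86.2 to 107 CPM in B1, B7 and B9, which were below every control, and endothelial markers (Cldn5 highest) at 140.4 to 217, 196 and 149 to 210.3 CPM. Each list had 8 genes, all with counts, and no gene of these lists passed the edgeR test with all 7 mice; without B8, 4 neuron, 5 astrocyte, 5 oligodendrocyte lineage, 4 microglia and 4 endothelium markers passed, where 46.7% of all genes did. Of the region and blood lists, 3 dorsal midbrain, 2 telencephalon, 1 hypothalamus, 0 pituitary, 0 hindbrain and 3 red blood cell markers passed without B8. Red blood cell markers (7 of 8 listed genes matched, Hbb-bs highest) summed to 158, 499 and 133 CPM in A2, A4 and A6 and 182, 62.4, 180.2 and 58.5 CPM in B1, B7, B8 and B9, so that A4 was highest and the P2 mice B7 and B9 lowest. The part of these markers in the results on neuropeptide genes was not tested.

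Neuropeptides are made as long precursors that enter dense-core vesicles, where convertases cut them into short peptides. Most of these act on G protein-coupled receptors, at some distance from the release site. Granins are acidic proteins of the same vesicles that help to pack the cargo and are themselves cut into peptides. In the superior colliculus, peptides such as somatostatin, cholecystokinin and enkephalin are known from particular layers and from subsets of inhibitory and excitatory neurons.

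Levels between genes were compared as CPM per kilobase of exon. Sst, the somatostatin precursor and the highest listed gene on this scale, had a mean control level of 129.5 ± 23.1 (SD, n = 3). The 4 granins followed, with Chga (chromogranin A) at 76.9 ± 3.57, Scg2 (secretogranin II) at 65.5 ± 9.23, Chgb (chromogranin B) at 53.2 ± 3.38 and Vgf at 46.5 ± 2.90 CPM per kb (SD, n = 3). Pnoc, Cck, Npy and Penk, the precursors of nociceptin, cholecystokinin, neuropeptide Y and enkephalins, lay between 10.6 and 14.9 CPM per kb. Another 13 listed genes lay between 1 and 10 CPM per kb, from Nts (neurotensin) at 9.38 down to Gnrh1 (gonadotropin-releasing hormone) at 1.07, and 11 lay under 1. Neighbours in this order mostly did not differ beyond the spread of the 3 controls, whose ranges overlapped in 27 of 32 neighbouring pairs. The exceptions were the steps below Sst, Scg2, Chgb, Vgf and Nts. In CPM without division by length, which compares libraries and not genes, Chga came first and Sst was in place 5, since Sst has 721 exon bases and Chga 2756. The 33 genes together gave 914, 956 and 849 CPM in A2, A4 and A6 and 783, 820.4, 1001 and 734 CPM in B1, B7, B8 and B9. Granins made up 71.0% to 74.9% of that sum in the controls, 72.6% in B8 and 80.0% to 80.4% in the other cKO mice.

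**Figure D1:**
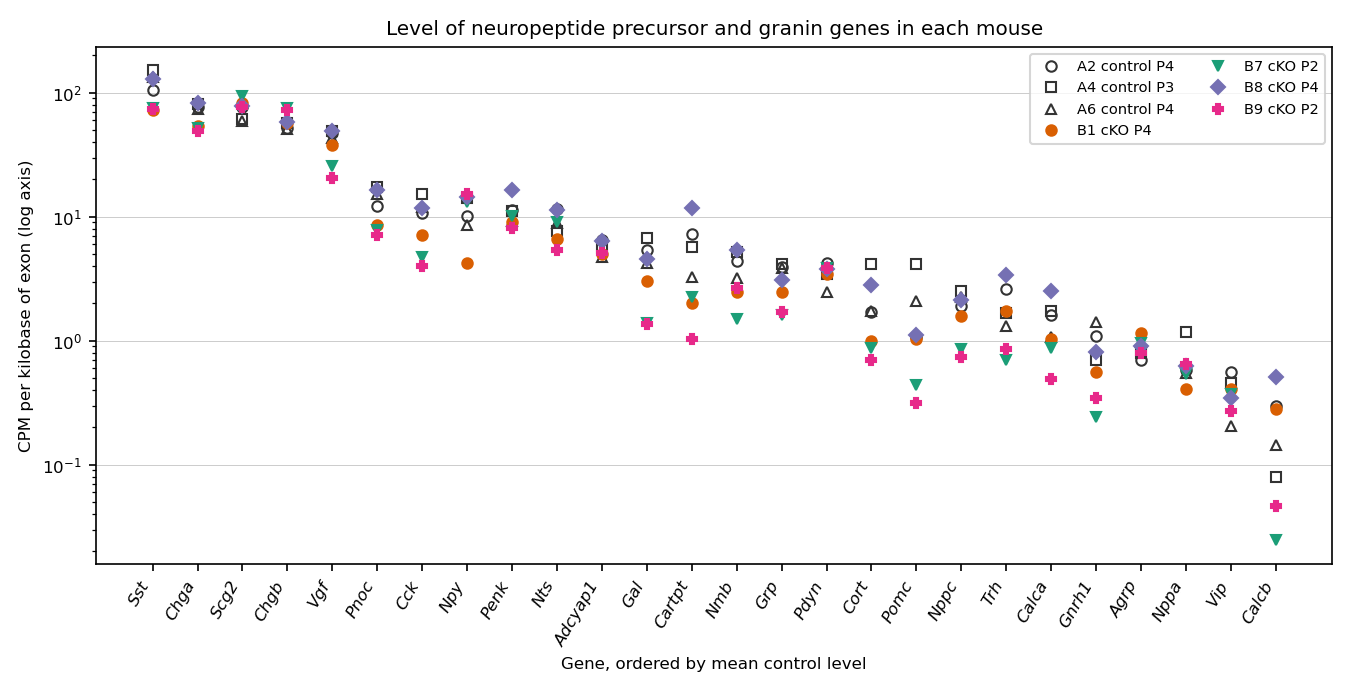
Level of the 26 tested neuropeptide precursor and granin genes in each mouse, as CPM per kilobase of exon on a log axis, ordered by the mean of the controls. Open dark symbols are the 3 controls and filled coloured symbols the 4 cKO mice; Sst and the 4 granins lie above the other genes in every mouse.

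With all 7 mice, none of the 26 tested genes passed an adjusted p of 0.05 by edgeR, against 0.00458% of all genes tested. At an unadjusted p under 0.05 there were 7 of 26 listed genes and 6633 of 21817 genes in all. The median log2 fold change was -0.36 over the listed genes and 0.00 over all genes tested, and 18 of 26 listed genes had a value below 0. With only the P4 mice of both groups, the median was 0.00, with 13 of 26 below 0, and 0.01 over all genes. Against the P4 cKO mice, B1 and B8, it was -0.10, and 0.00 over all genes. With the trend with exon length and GC content removed from each library, it was -0.20, and -0.04 over all genes. By DESeq2, 2 of 25 listed genes with an adjusted p passed, Pomc and Grp, both lower in cKO, against 9.97% of all genes (2.82% lower and 7.15% higher). By limma-voom with sample quality weights, which gave B8 a weight of 0.167 against 0.857 to 2.89 for the other mice, 15 of 26 passed (13 lower, 2 higher), against 48.5% of all genes. Without B8, edgeR called 16 of 25 listed genes, against 46.7% of all genes. Of these, 14 fell in cKO, where 23.1% of all genes fell, and 2 rose, Scg2 and Chgb, where 23.7% of all genes rose. The median log2 fold change without B8 was -0.80 over the listed genes and 0.00 over all genes. With the length and GC trend removed as well, it was -0.40 over the listed genes and -0.04 over all genes. With A4 left out as well as B8, an alternative added after seeing the data, 11 of 25 were called, against 37.5% of all genes. This ended the calls of the fit without B8 on Scg2 (log2 fold change 0.36 to 0.31, edgeR adjusted p = 0.0933), Cort (log2 fold change -1.61 to -1.04, edgeR adjusted p = 0.0709), Nmb (log2 fold change -0.96 to -0.80, edgeR adjusted p = 0.0780), Nppc (log2 fold change -1.12 to -1.02, edgeR adjusted p = 0.0588) and Calca (log2 fold change -0.91 to -0.77, edgeR adjusted p = 0.140), of which only Cort moved by over 1.5 times. The cKO and control mice did not overlap in 2 of the 26 genes, against 14.0% of all genes; these were Scg2, higher in cKO (6.03% of all genes), and Grp, lower in cKO (8.01% of all genes). For both, the exact two-sided permutation p over the mice was 0.0571, the smallest that 3 against 4 mice allow. The lack of overlap fixes this value, so it adds nothing to it. Without B8 the groups did not overlap in 15 of 26 listed genes and in 56.2% of all genes. In bulk tissue, fewer cells of a type and less RNA per cell cannot be told apart.

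**Figure D2:**
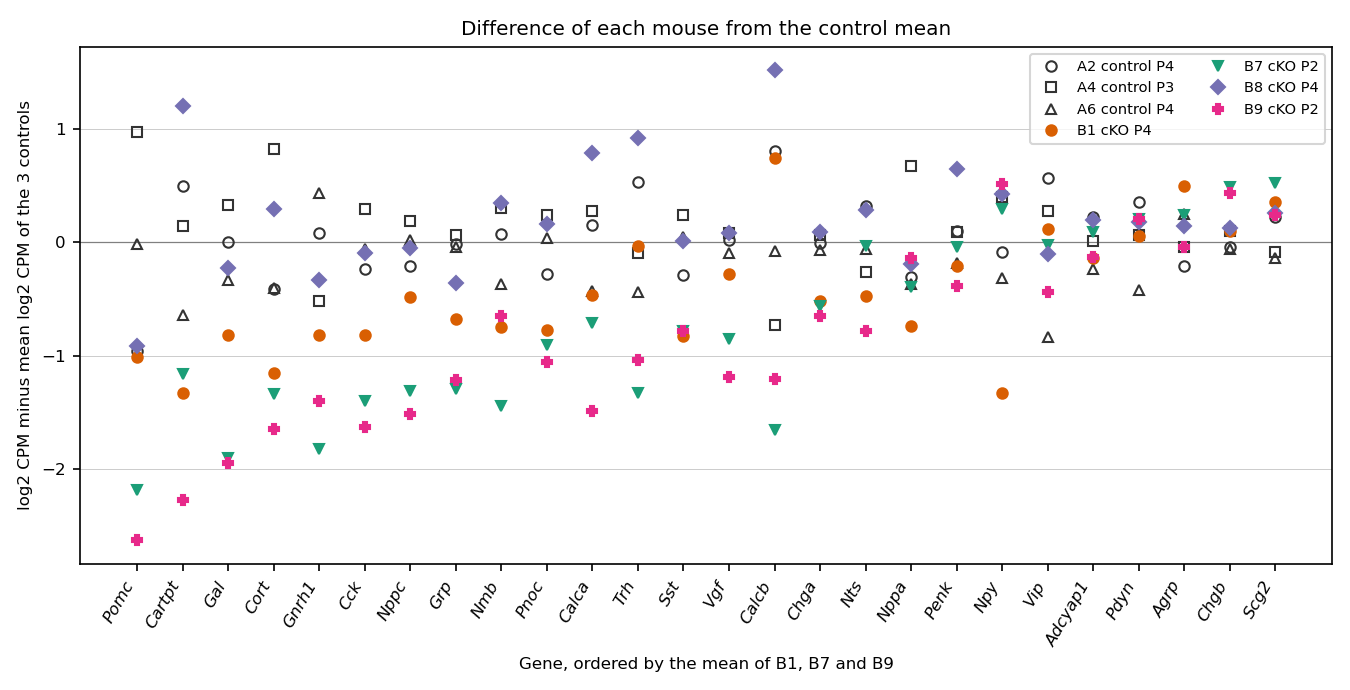
Difference of each mouse from the mean of the 3 controls (log2 CPM) for the 26 tested genes, ordered by the mean of B1, B7 and B9. Open dark symbols are controls and filled coloured symbols cKO mice; B8 (diamonds) lies near or above the controls for most genes on the left, where B1, B7 and B9 lie below them.

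The log2 fold changes of the granins had both signs, but with B8 kept none passed an adjusted p of 0.05 by edgeR. Scg2 was at 191, 154 and 149 CPM in controls A2, A4 and A6 and 209, 235, 196 and 194 CPM in cKO mice B1, B7, B8 and B9. All cKO mice lay above the controls, but B9 exceeded control A2 only narrowly, and the log2 fold change was 0.34 ± 0.14 (SE; edgeR adjusted p = 0.146). Chgb, a granin packed with Scg2 in the same vesicles, was at 142, 156 and 139 CPM in controls A2, A4 and A6 and 156, 205, 159 and 197 CPM in cKO mice B1, B7, B8 and B9. The P2 mice B7 and B9 were highest, while B1 and B8 lay on either side of A4, the highest control, and close to it; the log2 fold change was 0.30 ± 0.14 (SE; edgeR adjusted p = 0.184). Without B8, both rose, Scg2 by 0.36 ± 0.12 (SE; edgeR adjusted p = 0.0279) and Chgb by 0.35 ± 0.12 (SE; edgeR adjusted p = 0.0317) on the log2 scale. Chga was at 212, 222 and 202 CPM in controls A2, A4 and A6 and 148, 144, 226 and 135 CPM in cKO mice B1, B7, B8 and B9. B8 was above all controls and the other cKO mice were below them, so that a log2 fold change of -0.38 ± 0.18 (SE; edgeR adjusted p = 0.187) with B8 became -0.58 ± 0.10 (SE; edgeR adjusted p = 0.000564) without it. Vgf, a granin-like precursor induced by neurotrophins, was at 139.8, 146 and 129 CPM in controls A2, A4 and A6 and 114, 76.3, 146 and 60.6 CPM in cKO mice B1, B7, B8 and B9. Again B8 was at the top of the controls and the rest of the cKO mice below them, the P2 mice lowest, with a log2 fold change of -0.48 ± 0.27 (SE; edgeR adjusted p = 0.233) with B8 and -0.73 ± 0.18 (SE; edgeR adjusted p = 0.00598) without it.

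Of the opioid precursors, Pomc, which gives corticotropin, melanocortins and beta-endorphin, had the lowest fold change of the tested listed genes with all 7 mice. It was at 1.41, 5.50 and 2.74 CPM in controls A2, A4 and A6 and 1.35, 0.574, 1.45 and 0.411 CPM in cKO mice B1, B7, B8 and B9, or 34 to 220 counts a library. A4 was the highest mouse by far and the P2 mice B7 and B9 were the lowest, while B8 lay just above the lowest control, A2, so that the groups overlapped. The log2 fold change was -1.81 ± 0.55 (SE; edgeR adjusted p = 0.138) or -1.80 ± 0.53 (SE; DESeq2 adjusted p = 0.0255). Without A4, the edgeR value was -1.17 ± 0.56 (SE; edgeR adjusted p = 0.395), and Gnrh1 was then lower than Pomc, at -1.41. Without B8, the value of Pomc was -2.16 ± 0.52 (SE; edgeR adjusted p = 0.00485). The DESeq2 call on Pomc held without A2 or B8 and ended when any other mouse was left out, at log2 fold changes of -1.16 without A4 and -2.01 to -1.54 without A6, B1, B7 or B9. Slc17a7 was also highest in A4; whether these are related was not tested. Pnoc, the nociceptin precursor, was at 26.2, 37.7 and 32.8 CPM in controls A2, A4 and A6 and 18.7, 17.0, 35.6 and 15.3 CPM in cKO mice B1, B7, B8 and B9. B8 lay among the controls and B1, B7 and B9 lay below all of them, with a log2 fold change of -0.58 ± 0.29 (SE; edgeR adjusted p = 0.196) with B8 and -0.93 ± 0.15 (SE; edgeR adjusted p = 0.000451) without it. Penk was at 18.4, 18.3 and 15.1 CPM in controls A2, A4 and A6 and 14.8, 16.6, 26.9 and 13.2 CPM in cKO mice B1, B7, B8 and B9. B8 was the highest of all mice, B7 lay among the controls and B1 and B9 just below them, and the log2 fold change was 0.05 ± 0.24 (SE; edgeR adjusted p = 0.901) with B8 and -0.22 ± 0.15 (SE; edgeR adjusted p = 0.255) without it. Penk shares its locus with a gene on the opposite strand. Pdyn, the dynorphin precursor, ranged from 7.16 to 12.2 CPM in the controls and from 9.94 to 11.1 CPM in the cKO mice, which lay within the controls, at a log2 fold change of 0.13 ± 0.20 (SE; edgeR adjusted p = 0.666) with B8 and 0.12 ± 0.19 (SE; edgeR adjusted p = 0.627) without it.

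Sst (ENSMUSG00000004366.3, chromosome 16, 23889573 to 23890958, minus strand, GRCm38) was at 75.7, 109 and 95.5 CPM in controls A2, A4 and A6 and 52.1, 53.8, 93.0 and 53.6 CPM in cKO mice B1, B7, B8 and B9. B1, B7 and B9 lay within 2 CPM of each other and below every control, and B8 lay between A2 and A6. The log2 fold change was -0.57 ± 0.23 (SE; edgeR adjusted p = 0.145) with B8 and -0.82 ± 0.13 (SE; edgeR adjusted p = 0.000393) without it. Cort, the precursor of cortistatin, a peptide that binds somatostatin receptors, was at 1.16, 2.80 and 1.17 CPM in controls A2, A4 and A6 and 0.677, 0.590, 1.92 and 0.470 CPM in cKO mice B1, B7, B8 and B9. A4 was highest and B8 second, with B1, B7 and B9 below all controls; the log2 fold change was -0.93 ± 0.55 (SE; edgeR adjusted p = 0.258) with all mice, -1.61 ± 0.42 (SE; edgeR adjusted p = 0.00820) without B8 and -1.04 ± 0.41 (SE; edgeR adjusted p = 0.0709) without A4 and B8.

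Cck, the cholecystokinin precursor, was at 13.9, 20.04 and 15.7 CPM in controls A2, A4 and A6 and 9.26, 6.16, 15.3 and 5.27 CPM in cKO mice B1, B7, B8 and B9. B8 lay within the controls, B1 below them and the P2 mice lowest, with a log2 fold change of -0.89 ± 0.34 (SE; edgeR adjusted p = 0.140) with B8 and -1.28 ± 0.22 (SE; edgeR adjusted p = 0.000577) without it. Gal, the galanin precursor, followed the same pattern, at 4.23, 5.35 and 3.36 CPM in controls A2, A4 and A6 and 2.39, 1.10, 3.62 and 1.07 CPM in cKO mice B1, B7, B8 and B9, with a log2 fold change of -1.10 ± 0.43 (SE; edgeR adjusted p = 0.142) with B8 and -1.56 ± 0.34 (SE; edgeR adjusted p = 0.00254) without it. Grp, the precursor of gastrin-releasing peptide, was at 5.81, 6.14 and 5.70 CPM in controls A2, A4 and A6 and 3.67, 2.38, 4.58 and 2.50 CPM in cKO mice B1, B7, B8 and B9. All 4 cKO mice, B8 included, lay below the 3 controls, which were within 0.5 CPM of each other. Its log2 fold change was -0.85 ± 0.26 (SE; edgeR adjusted p = 0.138), -0.85 ± 0.28 (SE; DESeq2 adjusted p = 0.0377) in the other fit, and -1.07 ± 0.23 (SE; edgeR adjusted p = 0.00230) without B8. Leaving out any mouse other than B8 ended the DESeq2 call on Grp, while the log2 fold change stayed at -0.90 to -0.72. A gene on the opposite strand overlaps Grp. Nmb, the neuromedin B precursor, was at 3.48, 4.10 and 2.56 CPM in controls A2, A4 and A6 and 1.96, 1.20, 4.24 and 2.09 CPM in cKO mice B1, B7, B8 and B9. B8 was highest and B1, B7 and B9 lay below all controls, with a log2 fold change of -0.52 ± 0.40 (SE; edgeR adjusted p = 0.379) with B8 and -0.96 ± 0.30 (SE; edgeR adjusted p = 0.0181) without it; Nmb overlaps Sec11a on the same strand, and its counts are uncertain for that reason. Nts was at 14.4, 9.64 and 11.1 CPM in controls A2, A4 and A6 and 8.30, 11.3, 14.1 and 6.71 CPM in cKO mice B1, B7, B8 and B9, with B7 and B8 inside the control range and B1 and B9 below it, and its log2 fold change was -0.21 ± 0.27 (SE; edgeR adjusted p = 0.601) with B8 and -0.41 ± 0.22 (SE; edgeR adjusted p = 0.137) without it. Adcyap1, which encodes PACAP, ranged from 17.8 to 24.4 CPM in the controls and from 19.1 to 24.0 CPM in the cKO mice, with every cKO mouse inside the control range and a log2 fold change of 0.00 ± 0.16 (SE; edgeR adjusted p = 0.996) with B8 and -0.07 ± 0.15 (SE; edgeR adjusted p = 0.735) without it. Vip, the precursor of vasoactive intestinal peptide, ranged from 0.694 to 1.91 CPM in the controls and 0.929 to 1.39 CPM in the cKO mice, likewise inside the control range, with a log2 fold change of -0.23 ± 0.37 (SE; edgeR adjusted p = 0.691) with B8 and -0.23 ± 0.39 (SE; edgeR adjusted p = 0.657) without it.

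Among the peptides known for feeding and arousal, Cartpt, the CART precursor, was at 9.21, 7.22 and 4.16 CPM in controls A2, A4 and A6 and 2.56, 2.89, 15.1 and 1.32 CPM in cKO mice B1, B7, B8 and B9. B8 was the highest mouse and B1, B7 and B9 were below all controls. The log2 fold change was -0.34 ± 0.72 (SE; edgeR adjusted p = 0.764) with B8 and -1.62 ± 0.34 (SE; edgeR adjusted p = 0.00203) without it. Npy was at 5.72, 8.02 and 4.86 CPM in controls A2, A4 and A6 and 2.39, 7.45, 8.18 and 8.70 CPM in cKO mice B1, B7, B8 and B9. B1 was lowest and the other cKO mice lay near A4, the highest control, with a log2 fold change of 0.11 ± 0.39 (SE; edgeR adjusted p = 0.860) with B8 and 0.01 ± 0.36 (SE; edgeR adjusted p = 0.986) without it. Agrp, a melanocortin receptor antagonist in the hypothalamus, ranged from 0.705 to 0.986 CPM in the controls and 0.799 to 1.18 CPM in the cKO mice, which overlapped, with a log2 fold change of 0.21 ± 0.32 (SE; edgeR adjusted p = 0.666) with B8 and 0.22 ± 0.37 (SE; edgeR adjusted p = 0.646) without it; its annotated span overlaps several genes on both strands, so these counts are uncertain. Trh, the precursor of thyrotropin-releasing hormone, was at 3.61, 2.32 and 1.83 CPM in controls A2, A4 and A6 and 2.42, 0.962, 4.73 and 1.19 CPM in cKO mice B1, B7, B8 and B9, highest in B8 and lowest in the P2 mice, with a log2 fold change of -0.17 ± 0.53 (SE; edgeR adjusted p = 0.847) with B8 and -0.80 ± 0.39 (SE; edgeR adjusted p = 0.106) without it. Calca, which encodes calcitonin and CGRP, was also highest in B8, at 2.70, 2.95 and 1.79 CPM in controls A2, A4 and A6 and 1.75, 1.46, 4.21 and 0.835 CPM in cKO mice B1, B7, B8 and B9, and its log2 fold change was -0.28 ± 0.49 (SE; edgeR adjusted p = 0.712) with B8 and -0.91 ± 0.34 (SE; edgeR adjusted p = 0.0429) without it. Calcb, the second CGRP gene, had 2 to 26 counts a library and was highest in B8, at 0.640 CPM, with a log2 fold change of 0.26 ± 1.01 (SE; edgeR adjusted p = 0.872); without B8 it did not pass the edgeR filter, and DESeq2 gave -0.65 without a call. Tph2 and En1 were highest in B8 as well; their part in the Cartpt, Penk, Trh, Calca and Calcb levels of B8 was not tested.

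**Figure D3:**
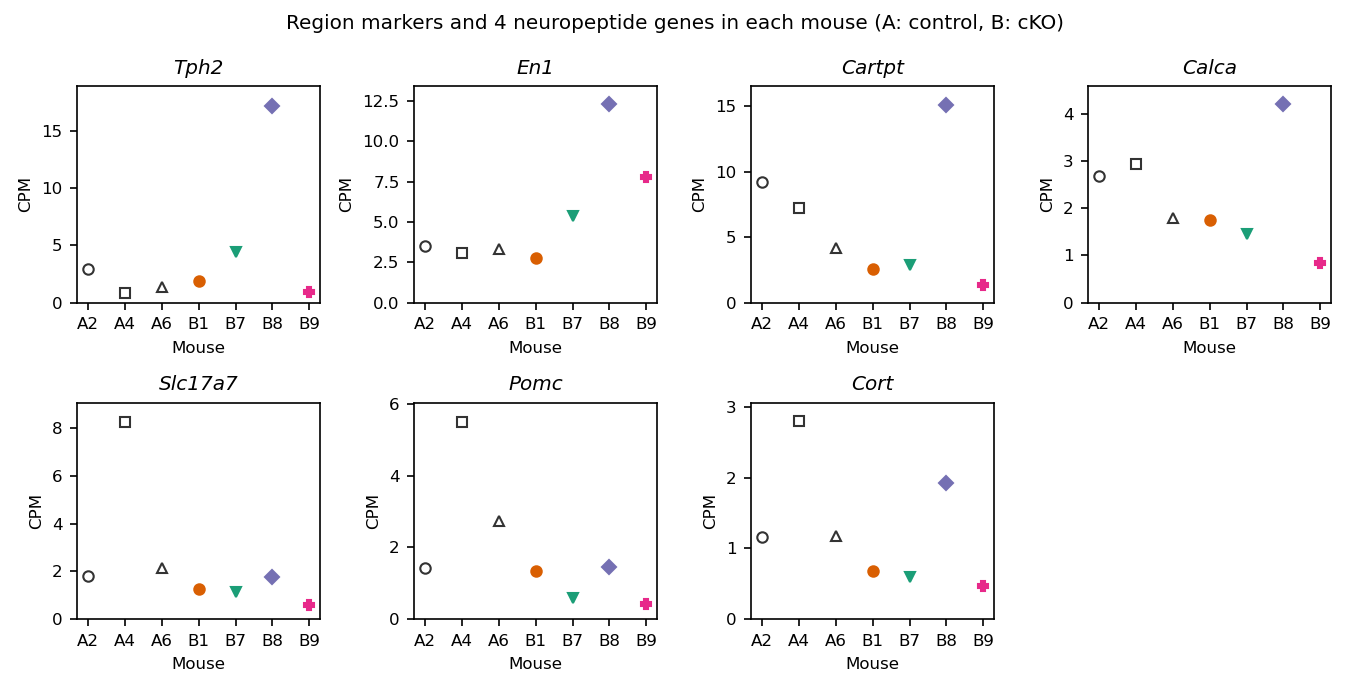
CPM in each mouse for Tph2 and En1 beside Cartpt and Calca (upper panels) and for Slc17a7 beside Pomc and Cort (lower panels). Open symbols are controls and filled symbols cKO mice. The upper genes are highest in B8 and the lower genes in A4. Only genes with these patterns are shown, so the panels do not test whether the genes are related.

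Gnrh1 was at 0.705, 0.450 and 0.913 CPM in controls A2, A4 and A6 and 0.356, 0.155, 0.517 and 0.223 CPM in cKO mice B1, B7, B8 and B9, or 10 to 25 counts a library. B1, B7 and B9 were below all controls and B8 was above A4, with a log2 fold change of -1.16 ± 0.51 (SE; edgeR adjusted p = 0.161) with B8 and -1.54 ± 0.52 (SE; edgeR adjusted p = 0.0287) without it. Nppc, which encodes C-type natriuretic peptide, was at 1.99, 2.62 and 2.34 CPM in controls A2, A4 and A6 and 1.64, 0.900, 2.22 and 0.776 CPM in cKO mice B1, B7, B8 and B9. The P2 mice were lowest and B8 lay inside the control range, with a log2 fold change of -0.77 ± 0.39 (SE; edgeR adjusted p = 0.2003) with B8 and -1.12 ± 0.34 (SE; edgeR adjusted p = 0.0175) without it. Nppa, for atrial natriuretic peptide, ranged from 0.475 to 1.02 CPM in the controls and 0.356 to 0.564 CPM in the cKO mice, which overlapped, and the log2 fold change was -0.47 ± 0.42 (SE; edgeR adjusted p = 0.445) with B8 and -0.53 ± 0.46 (SE; edgeR adjusted p = 0.376) without it. Pmch, Hcrt, Oxt, Avp, Nmu, Nms and Rln3 did not pass the filter. They encode melanin-concentrating hormone, orexins, oxytocin, vasopressin, neuromedins U and S and relaxin-3, most of them known from hypothalamic nuclei or, for relaxin-3, the nucleus incertus. Their counts over all 7 libraries were 26 for Pmch, 24 for Hcrt, 9 for Oxt, 8 for Avp, 13 for Nmu, 9 for Nms and 30 for Rln3. A count of 0 in a library allows up to 3 counts, which is 0.0353 CPM in B9 and 0.124 CPM in A2, for counting error only, and none of these genes was called when the filter was lowered to 1 count in any library.

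Exon length moved with the fold change across all genes, and the listed genes are short. The median exon length was 1312 bases over the 26 tested listed genes and 3407 bases over all genes tested. Without B8, the median log2 fold change over all genes was -0.48 in the shortest quintile (51 to 1591 bases), -0.33 in the next quintile, -0.11 in the middle and 0.47 in the longest quintile (from 6541 bases). The 15 listed genes of the shortest quintile had a median of -1.07, the 6 of the next quintile -0.40, and the 4 of the middle quintile -0.15, near all genes; none was in the longest 2 quintiles. When each library's smooth trend with exon length and GC content was removed, also chosen after seeing the data, edgeR without B8 called 9 of 25 listed genes, against 33.7% of all genes. The 7 lower genes, against 19.4% of all genes, were Pomc, Pnoc, Cck, Gal, Grp, Cartpt and Nppc, and the 2 higher genes, against 14.3%, were Scg2 and Chgb. For Sst, the log2 fold change without B8 went from -0.82 to -0.22 ± 0.12 (SE; edgeR adjusted p = 0.184) with the trend removed. Chga went from -0.58 to -0.05 ± 0.10 (SE; edgeR adjusted p = 0.727) and Vgf from -0.73 to -0.14 ± 0.12 (SE; edgeR adjusted p = 0.406). The calls on Sst, Chga and Vgf were therefore lost with this trend, and so were those on Cort (-0.86, edgeR adjusted p = 0.110), Nmb (-0.48, edgeR adjusted p = 0.210), Gnrh1 (-1.27, edgeR adjusted p = 0.0700) and Calca (-0.77, edgeR adjusted p = 0.0932). Cck (-0.72 ± 0.18, adjusted p = 0.00759), Pnoc (-0.69 ± 0.14, adjusted p = 0.00272) and Gal (-1.05 ± 0.30, adjusted p = 0.0179) were also nearer to 0 than before and still passed by edgeR. Chgb was larger with the trend removed, at 0.65 ± 0.13 (SE; edgeR adjusted p = 0.00236), and Scg2 was at 0.39 ± 0.11 (SE; edgeR adjusted p = 0.0197). With B8 kept and the trend removed, no listed gene passed. Whether the trend came from the libraries or from the tissue was not tested.

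**Figure D4:**
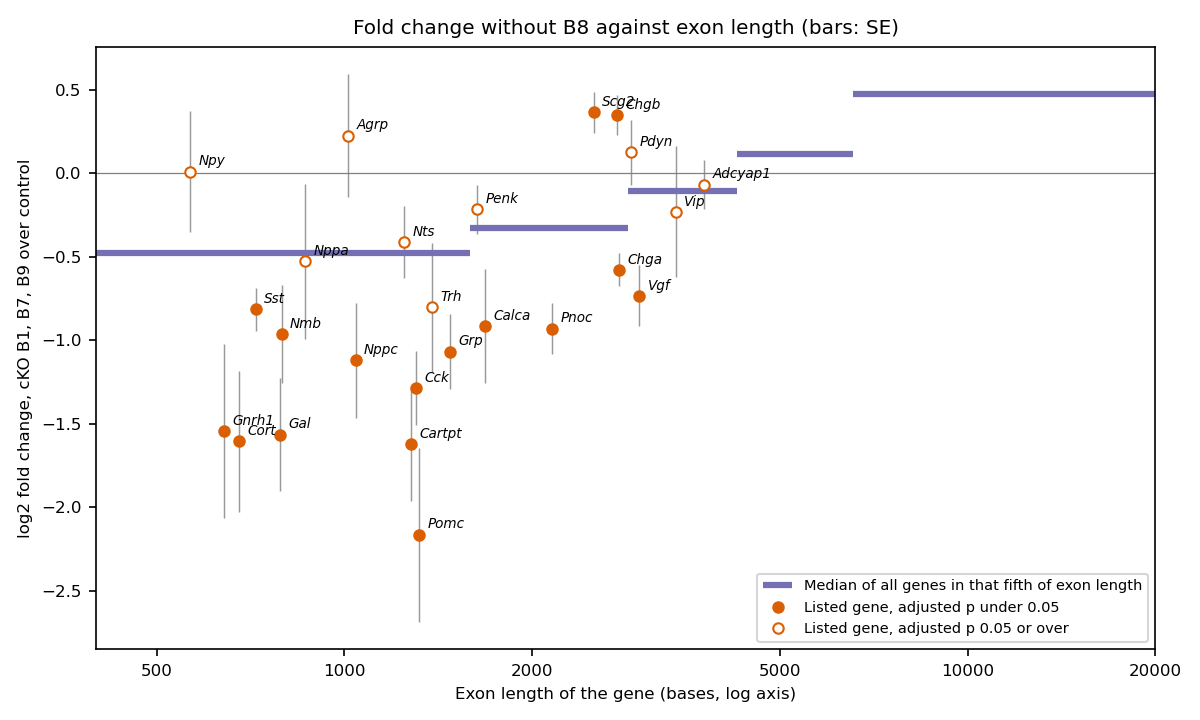
Log2 fold change of cKO mice B1, B7 and B9 over the 3 controls against exon length (log axis) for the 25 listed genes tested without B8. Points are genes with their SE, filled where the edgeR adjusted p was under 0.05, and thick lines are the medians of all genes in each quintile of exon length; most short listed genes lie below the line of their quintile, and Scg2 and Chgb lie above theirs.

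Age is partly confounded with genotype in these mice. Against the P2 cKO mice alone, edgeR called 17 of 25 listed genes (15 lower, 2 higher), against 46.9% of all genes. Against the P4 cKO mice, B1 and B8, it called 0 of 26 at an adjusted p, against 0.00476% of all genes, and 0 of 26 at an unadjusted p under 0.05, against 774 of 21002 genes in all, and the difference between the P2 and P4 mice was not tested. B1, a P4 mouse, lay on the same side of the controls as the P2 mice in most genes, with a median difference from the control mean of -0.50 (log2) over the 26 genes, against -0.82 in B7, -0.91 in B9 and 0.15 in B8. With postnatal day as a covariate, no listed gene passed, and 4 of 26 had an unadjusted p under 0.05, against 3967 of 21817 genes in all. P2 and the cKO genotype cannot be told apart for B7 and B9, since no control was sampled at P2. B7 and B9 were also the deepest libraries, so depth and P2 cannot be told apart for them.

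Promoters were searched for the cAMP response element, a motif known from neuropeptide genes. The search was made because edgeR called both Scg2 and Chgb higher without B8. With B8 kept, neither passed by edgeR, and whether the genes move together was not tested. RefSeq promoters (GRCm38.p6, from before to just after the gene start) were matched for 27 listed genes. The palindrome TGACGTCA was in 4 of them, Scg2, Chgb, Sst and Cartpt, and in 1.79% of 32851 promoters. A related element, TGCGTCA on either strand, was in Cck, Cort and Calca and in 2.12% of all promoters. The palindrome was thus found both in the genes that rose without B8 (Scg2, Chgb) and in genes that fell (Sst, Cartpt). Counted from the RefSeq start, it began 68 bases before the start of Scg2, 72 bases before the start of Chgb, 48 bases before the start of Sst and 112 bases before the start of Cartpt. The GENCODE span of each of these 4 genes begins farther upstream and contains the motif, so its place relative to the start depends on the annotation. The stretches around it are shown 5′ to 3′ on the strand of the gene, with the motif in capitals, to let the flanks be compared; a match is a description and not a site.
Scg2 (chr1:79440047-79440134, minus strand): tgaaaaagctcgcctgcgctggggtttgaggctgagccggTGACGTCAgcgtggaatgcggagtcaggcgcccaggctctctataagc
Chgb (chr2:132781530-132781617, plus strand): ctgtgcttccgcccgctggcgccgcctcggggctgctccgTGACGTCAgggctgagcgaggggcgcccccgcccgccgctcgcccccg
Sst (chr16:23890845-23890932, minus strand): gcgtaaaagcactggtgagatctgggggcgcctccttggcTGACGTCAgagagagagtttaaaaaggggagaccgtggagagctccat
Cartpt (chr13:99900748-99900835, minus strand): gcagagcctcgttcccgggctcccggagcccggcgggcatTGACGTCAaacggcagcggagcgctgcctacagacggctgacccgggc

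Genes that process and release the peptides were listed apart from the precursors. Of 14 genes for convertases, trimming enzymes and dense-core vesicles, all were tested and none passed by edgeR or DESeq2 with all 7 mice, while 7 had an unadjusted edgeR p under 0.05, against 6633 of 21817 genes in all. Without B8, 8 of 14 passed (5 lower, 3 higher), against 46.7% of all genes, and the same alternative with the length and GC trend removed gave 5 (5 lower, 0 higher), against 33.7%. The lower genes were not the same in both fits. Pcsk2 (log2 fold change 0.15 to -0.31) and Pam (0.18 to -0.37) turned sign and passed only with the trend removed. A share near that of all genes is not a result about the list. Median log2 fold changes of the 14 genes were 0.05 with all mice and 0.06 without B8. Cpe, the carboxypeptidase that trims cut peptides, was at 1923, 2143 and 1931 CPM in controls A2, A4 and A6 and 1500, 1443, 1865 and 1560 CPM in cKO mice B1, B7, B8 and B9; B8 was below all controls but nearest to them, and the log2 fold change was -0.33 ± 0.13 (SE; edgeR adjusted p = 0.140) with B8 and -0.42 ± 0.10 (SE; edgeR adjusted p = 0.00452) without it. Scg5, the chaperone of convertase 2, was at 155, 163 and 158 CPM in controls A2, A4 and A6 and 105, 114, 149.5 and 121 CPM in cKO mice B1, B7, B8 and B9, with all cKO mice below the controls and a log2 fold change of -0.38 ± 0.14 (SE; edgeR adjusted p = 0.140) with B8 and -0.49 ± 0.10 (SE; edgeR adjusted p = 0.00194) without it. Ptprn2 and Cadps2, membrane and priming proteins of dense-core vesicles, are both long genes, with 8602 and 9566 exon bases. Ptprn2 was at 89.2, 49.9 and 80.0 CPM in controls A2, A4 and A6 and 138, 136, 76.3 and 118 CPM in cKO mice B1, B7, B8 and B9, and B8 alone lay inside the control range; its log2 fold change was 0.68 ± 0.25 (SE; edgeR adjusted p = 0.138) with B8 and 0.83 ± 0.18 (SE; edgeR adjusted p = 0.00233) without it. Cadps2 was at 13.98, 12.4 and 8.58 CPM in controls A2, A4 and A6 and 18.7, 23.6, 14.8 and 16.9 CPM in cKO mice B1, B7, B8 and B9, with every cKO mouse above the controls and a log2 fold change of 0.67 ± 0.22 (SE; edgeR adjusted p = 0.138) with B8 and 0.76 ± 0.19 (SE; edgeR adjusted p = 0.00691) without it. With the trend removed and B8 left out, Cpe (-0.32 ± 0.10, adjusted p = 0.0249) and Scg5 (-0.36 ± 0.10, adjusted p = 0.0152) still passed by edgeR. Ptprn2 and Cadps2 did not pass in that fit, Ptprn2 at 0.37 ± 0.16 (SE; edgeR adjusted p = 0.0975) and Cadps2 at 0.26 ± 0.19 (SE; edgeR adjusted p = 0.314).

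Of 47 receptor genes, 42 were tested and none passed by edgeR with all 7 mice, with 8 at an unadjusted p under 0.05, against 6633 of 21817 genes in all. DESeq2 called 2 of 40, Hcrtr2 and Oprm1, both higher in cKO, against 9.97% of all genes. Neither call held when A4, A6, B1, B7 or B9 was left out, and that on Hcrtr2 also ended without A2. For Oprm1, the edgeR log2 fold change without A4 was 1.07, against 1.20 with all 7 mice. Without B8, 16 passed by edgeR (8 lower, 8 higher), against 46.7% of all genes, and with the trend removed 11 (4 lower, 7 higher), against 33.7%. The median log2 fold change of the tested receptors was 0.10 with all mice and 0.09 without B8. Hcrtr2, an orexin receptor, was at 6.76, 5.92 and 6.43 CPM in controls A2, A4 and A6 and 13.04, 11.5, 7.54 and 10.1 CPM in cKO mice B1, B7, B8 and B9. Every cKO mouse lay above the controls, B8 least, and the log2 fold change was 0.73 ± 0.21 (SE; edgeR adjusted p = 0.138) or 0.73 ± 0.23 (SE; DESeq2 adjusted p = 0.0346). Without B8, Hcrtr2 rose by 0.85 ± 0.17 (SE; edgeR adjusted p = 0.00151); with the trend removed and B8 left out it was 0.40 ± 0.17 (SE; edgeR adjusted p = 0.0804). The ligand gene Hcrt had 24 counts over all libraries. Oprm1, the mu opioid receptor, was at 1.82, 1.07 and 1.06 CPM in controls A2, A4 and A6 and 3.74, 4.45, 2.04 and 1.86 CPM in cKO mice B1, B7, B8 and B9. All cKO mice lay above the controls, though B9 exceeded A2 by little, with a log2 fold change of 1.20 ± 0.39 (SE; edgeR adjusted p = 0.138) or 1.21 ± 0.40 (SE; DESeq2 adjusted p = 0.0396). Oprm1 also rose without B8, by 1.35 ± 0.36 (SE; edgeR adjusted p = 0.00941), and with the trend removed in addition it was 0.91 ± 0.36 (SE; edgeR adjusted p = 0.0682). Both are long genes, with 6162 and 8037 exon bases, and each has a gene on the opposite strand. Ramp3, which turns the calcitonin receptor family towards amylin and adrenomedullin, was at 9.13, 14.1 and 9.90 CPM in controls A2, A4 and A6 and 5.91, 5.09, 9.93 and 4.35 CPM in cKO mice B1, B7, B8 and B9, with B8 among the controls and the other cKO mice below them, and a log2 fold change of -0.81 ± 0.30 (SE; edgeR adjusted p = 0.138) with B8 and -1.13 ± 0.21 (SE; edgeR adjusted p = 0.000980) without it; with the trend removed as well it was -0.64 ± 0.19 (SE; edgeR adjusted p = 0.0205). Adcyap1r1, the PACAP receptor, was at 316, 301 and 285 CPM in controls A2, A4 and A6 and 363, 387, 335 and 376 CPM in cKO mice B1, B7, B8 and B9, all cKO mice being above the controls, with a log2 fold change of 0.28 ± 0.11 (SE; edgeR adjusted p = 0.145) with B8 and 0.32 ± 0.10 (SE; edgeR adjusted p = 0.0169) without it; with the trend removed and B8 left out it was 0.15 ± 0.09 (SE; edgeR adjusted p = 0.226). Its ligand gene Adcyap1 lay within the control range in every cKO mouse.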

How the data were processed

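Total RNA of dorsal midbrain was sequenced as strand-specific, poly(A)-selected, paired-end libraries, 1 per mouse. The authors aligned reads to GRCm38 with TopHat2 and Bowtie2 and deposited raw counts per gene made with HTSeq on a GENCODE annotation; its strand and overlap options are not given in the sources used here, so overlapping and antisense genes are uncertain. Counts that named no gene (31.0% to 38.2% of each library) were left out. Of 52636 identifiers, 52403 matched GENCODE vM21 (GRCm38).

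Counts were filtered with filterByExpr (minimum count 10, total 15), scaled by TMM and compared between cKO and control with the quasi-likelihood test of edgeR 4.0.16 (R 4.3.3), adjusted by Benjamini-Hochberg over all genes tested; log2 CPM used a prior count of 2. The SE given for edgeR was back-calculated as the absolute fitted log2 coefficient divided by the square root of the quasi-likelihood F statistic. DESeq2 1.42.0 and limma 3.58.1 served as alternatives, and smooth trends were fitted with mgcv 1.9.3. The fits were tested on simulated counts with known changes. Replicates of a group differed beyond sampling noise (chi-square per degree of freedom 7.86 or more), which does not tell mice from repeated libraries; all 7 were taken as separate mice from the labels. The members and lists were chosen with earlier results of these data known. Named genes were all listed genes, Pou4f2, and the most abundant and undetected marker of each list except the telencephalic and GABAergic lists. Also named were the 4 processing and 4 receptor genes with the lowest unadjusted edgeR p and a mean of at least 1 CPM. Slc17a7, En1, Pcsk2 and Pam were named after their values were seen. The results of the telencephalic and GABAergic marker lists are not reported.

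The design has 3 and 4 mice, P2 only among cKO mice, and 1 library that differs from its group. P2 and the cKO genotype cannot be separated for B7 and B9. The controls carry En1-Cre and a recombined allele as well, so effects of losing a single copy are not seen. Fold changes moved with exon length over all genes, and the listed genes are short. Tph2 in B8 and Slc17a7 in A4 differ from the other mice, and their part was not tested. Bulk RNA does not give cell numbers, and precursor RNA does not give peptide levels. Genes with few counts (Calcb, Nppa, Gnrh1, Agrp) carry wide errors.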

Additional observations from a re-analysis of the deposited data

Results flagged for a closer look

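In 2 of the 26 listed genes tested, a cKO mouse lay far from the other 3 of its group by Dixon's ratio of gap to range on log2 CPM. For Sst the ratio was 0.946, with B8 highest at 93.0 CPM against 52.1 to 53.8 CPM in B1, B7 and B9. For Npy it was 0.880, with B1 lowest at 2.39 CPM against 7.45 to 8.70 CPM in the others. Chance alone gives about 1 in 20 such groups, and 26 were examined.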

How the results depend on the processing

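With edgeR and all 7 mice, the numbers of all genes, listed precursor genes, processing genes and receptor genes called were 1, 0, 0 and 0. They were 1932, 2, 0 and 2 by DESeq2, 10583, 15, 9 and 19 by limma-voom with quality weights, 10425, 17, 9 and 16 against the P2 cKO mice, 0, 0, 0 and 0 with P4 mice only, 7848, 11, 7 and 12 without A4 and B8 and 7109, 9, 5 and 11 with B8 left out and the length and GC trend removed; leaving out A4 with B8 and removing the trend, with or without B8, were added after seeing the data. RLE factors, which moved the median of all genes by 0.0016, other filters, thinned counts, postnatal day as a covariate, the P4 cKO mice and the trend removed with B8 kept left the numbers at 1, 0, 0 and 0. Leaving out 1 mouse in turn, by edgeR or DESeq2, gave 1 to 9930 genes, 0 to 16 listed genes, 0 to 10 processing genes and 0 to 17 receptor genes; the highest values came without B8. Listed genes whose groups did not overlap numbered 2 with either scaling and 2 to 15 when a mouse was left out, the highest without B8, where 56.2% of all genes did not overlap. Sst was first per kilobase with either exon length and in place 5 without length. 14 of 26 log2 fold changes kept their sign in every alternative. The sign turned with limma-voom Penk (-0.11), Vip (0.0321) and Calcb (-1.46); against the P2 cKO mice Penk (-0.23) and Adcyap1 (-0.0458); without A4 and B8 Penk (-0.18) and Adcyap1 (-0.0695); with P4 mice only Cort (0.18), Nmb (0.0521), Cartpt (0.42), Trh (0.41) and Calca (0.43); with the filter at 1 count Adcyap1 (-0.0006); with the length and GC trend removed Adcyap1 (-0.13) and Trh (0.0180); with the trend removed and B8 left out Adcyap1 (-0.25) and Nppa (0.0175); with postnatal day as a covariate Npy (-0.13) and Trh (0.11); against the P4 cKO mice Npy (-0.21), Cartpt (0.39), Trh (0.49) and Calca (0.29). Ranges when 1 mouse was left out, for genes whose sign turned, were Penk -0.22 to 0.18, Pdyn -0.0525 to 0.32, Vip -0.55 to 0.0565, Adcyap1 -0.11 to 0.12, Npy -0.0389 to 0.39, Cartpt -1.62 to 0.0122, Trh -0.80 to 0.15, Nppa -0.67 to 0.0115, Calca -0.91 to 0.00590 and Calcb -0.65 to 0.92. The cause was not tested. No paired analysis was possible because no replicate number occurs in both groups.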
